A study of Rattus norvegicus with 16 samples.

Results

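Mitosis and cytokinesis genes encode the proteins that carry a cell from the end of DNA replication to a pair of daughter cells. Of 40 such genes listed, 35 were measured by a row of the array table that carries exactly 1 gene symbol, among 14324 genes measured in that way. The brightest row stood for each gene, and 5 listed genes had no row of that kind (Mki67, Cenpe, Cenpf, Birc5 and Anln). The measured genes fell into 4 steps, with 12 of 13 listed genes of mitotic entry, 9 of 11 of the kinetochore and its checkpoint, 8 of 8 of the spindle and 6 of 8 of cytokinesis. RNA was measured in the hearts of 16 rats aged 2 days, with 1 Affymetrix Rat Gene 1.0 ST array for each animal and no pooling. There were 4 females and 4 males of HHR, and 4 females and 4 males of NHR. HHR is the Hypertrophic Heart Rat, an inbred strain whose hearts the labels call hypertrophic, and NHR is the Normal Heart Rat, its control strain, whose hearts the labels call normal. No animal received a treatment, and neither the litters nor any processing batch is named in the labels. The labels' design text describes ventricles separated from the atria, whereas a growth protocol speaks of the whole heart.

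In a dividing cell, cyclin B and the kinase Cdk1 drive entry into mitosis, kinetochores tie each chromosome to spindle fibres, a checkpoint holds the cell until every chromosome is attached, and a contractile ring then splits the cell. Rodent heart muscle cells still divide around birth and leave the cell cycle in the following weeks, many of them after a nuclear division without cytokinesis, while fibroblasts, endothelial cells and blood cell precursors of the heart go on dividing. The genes of late cell cycle are switched together by MuvB complexes, which bind a short promoter element called the cell cycle genes homology region, often beside boxes bound by the factor NF-Y.

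Promoter sequences from RefSeq (build GRCr8, 250 bases before to 50 bases after each start) were found for 30 of the 35 measured genes. The others were Ccna2, Ube2c, Tpx2, Aurkb and Racgap1. The element and the NF-Y box were searched on both strands. The usual form of the element, TTTGAA, stood in 22 of the 30 promoters (73.3%), against 15.7% of the 11823 array genes with a promoter and 18.3% of all 33469 promoters. Its other form, TTTAAA, which reads the same on both strands, stood in 11 (36.7%), against 11.8% and 13.6%, and 29 of 30 promoters held at least 1 of these forms, against 24.6% and 28.3%. Nek2 was the exception. The NF-Y box, CCAAT, can share only its outermost T with either form and stood in 22 promoters (73.3%), against 38.9% and 37.5%. The usual form and the box occurred together in 17 (56.7%), against 6.48% and 7.41%. A match is a description of the letters and was not tested as a binding site. The last 150 bases before the start are shown for the 4 genes that differed between the strains and for 3 central genes that did not pass the test (Ccnb1, Cdk1 and Cdc20), so that their layout can be compared. They lie at chr3:135504922-135505071 for Bub1, chr8:79981659-79981808 for Ccnb2, chr14:81289699-81289848 for Tacc3, chr2:33655226-33655375 for Ccnb1 and chr5:137255800-137255949 for Cdc20, all on the minus strand, and at chr20:5000779-5000928 for Kifc1 and chr20:19265143-19265292 for Cdk1 on the plus strand. Capitals mark the matches on either strand, so that a box on the other strand reads ATTGG. In Kifc1 the element lies on the other strand as well and reads TTCAAA.
Bub1: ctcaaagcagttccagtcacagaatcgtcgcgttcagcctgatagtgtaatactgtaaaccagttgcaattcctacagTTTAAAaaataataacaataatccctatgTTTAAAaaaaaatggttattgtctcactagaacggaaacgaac
Ccnb2: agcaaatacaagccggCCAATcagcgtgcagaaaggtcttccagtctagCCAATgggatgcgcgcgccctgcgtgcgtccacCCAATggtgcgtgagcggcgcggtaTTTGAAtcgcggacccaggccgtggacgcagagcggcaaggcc
Kifc1: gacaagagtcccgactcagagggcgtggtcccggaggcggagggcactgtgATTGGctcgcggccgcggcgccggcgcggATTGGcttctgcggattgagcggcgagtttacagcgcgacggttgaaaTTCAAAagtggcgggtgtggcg
Tacc3: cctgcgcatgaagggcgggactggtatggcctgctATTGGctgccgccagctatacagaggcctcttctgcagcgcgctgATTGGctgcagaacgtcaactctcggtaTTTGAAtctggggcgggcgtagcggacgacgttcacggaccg
Ccnb1: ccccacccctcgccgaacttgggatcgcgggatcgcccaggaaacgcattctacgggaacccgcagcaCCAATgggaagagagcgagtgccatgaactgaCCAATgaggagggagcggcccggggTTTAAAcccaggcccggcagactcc
Cdk1: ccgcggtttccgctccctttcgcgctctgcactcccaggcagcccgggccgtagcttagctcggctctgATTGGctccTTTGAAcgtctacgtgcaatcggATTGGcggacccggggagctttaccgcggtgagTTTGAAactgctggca
Cdc20: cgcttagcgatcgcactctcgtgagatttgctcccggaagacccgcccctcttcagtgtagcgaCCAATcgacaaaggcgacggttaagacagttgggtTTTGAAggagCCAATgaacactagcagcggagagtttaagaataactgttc
In Ccnb2 3 CCAAT boxes followed each other at intervals of 33 bases, and TTTGAA began 43 bases before the start. In Ccnb1 and Cdk1 a pair of boxes lay 32 bases apart. Tacc3 and Cdc20 each had a pair 45 bases apart, with TTTGAA beginning 42 and 51 bases before the start. In Bub1 the printed window held TTTAAA at 2 places and no CCAAT. The promoters of Kif2c and Aurka also held TTTAAA without TTTGAA or CCAAT. Their RNA differed by -0.21 and 0.02, HHR minus NHR, without passing the test. A relation between layout and the direction of a difference was not tested. The 5 genes with no promoter in the table could not be compared in this way.

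**Figure D1:**
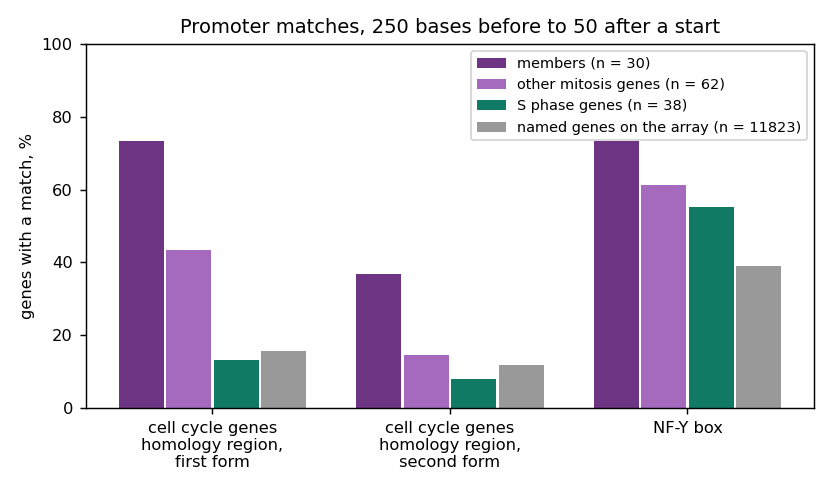
Share of genes (vertical axis, %) whose promoter held each element, for the mitosis and cytokinesis genes, the other mitosis genes, the S phase genes and all named genes on the array with a promoter. The forms of the cell cycle genes homology region are TTTGAA, the first form, and TTTAAA, the other one. The first form was found in 73.3% of the mitosis and cytokinesis genes, 43.5% of the other mitosis genes, 13.2% of the S phase genes and 15.7% of all array genes.

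All levels are log2 expression values, in which a difference of 1 is a doubling. Array medians lay between 7.19 and 7.28. All 10 cardiomyocyte markers were bright, the dimmest being Ryr2 with a mean of 12.4, so the tissue carried its defining genes. The arrays of NHR females 3 and 4 and of NHR male 4 were set apart from the rest in an earlier analysis of these data. They lay at 1 end of the main axis of variation within groups (26.7% of it), with scores of 14.4 to 22.6. NHR females 1 and 2 and NHR males 1 and 2 lay at the other end, at -16.9 to -11.1. NHR male 3 was at 1.74 and HHR at -3.72 to 7.48. Scores are set against group means, so the axis does not say which end is unusual. Leaving out these 3 arrays removes only 1 end. For many of the 35 genes the strain difference is also given without these 3 arrays. Cks2 was dim (mean 6.23 in both strains) and was the 1 gene of the 35 that would not pass a filter on low values.

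Few of these genes passed the test for a difference between the strains. By limma's test, with Benjamini-Hochberg adjustment over all 27342 probe sets, 1 of the 35 genes was higher in HHR (Bub1) and 3 were lower (Tacc3, Ccnb2 and Kifc1) at an adjusted p under 0.05. That is 11.4% of the genes, against 23.1% of all named genes (2.86% against 11.8% for higher, 8.57% against 11.2% for lower). The median SD within a group was 0.20 for these genes and 0.12 for all named genes. A difference of a given size was thus less likely to pass among these genes. The median difference, HHR minus NHR, was 0.004 over the 35 genes and -0.02 over all named genes, and its median size was 0.06 against 0.09. The difference was positive for 18 genes and negative for 17. Without the 3 arrays that stood apart, 0 genes were higher and 2 were lower (Tacc3 and Ccnb2), the median was -0.05, and 10 differences were positive and 25 negative. No gene separated the 8 HHR arrays from the 8 NHR arrays, whereas 2.32% of all named genes had every HHR array above every NHR array and 2.72% had every HHR array below. In 8 genes, the 4 named and Ccna2, Kif2c, Nek2 and Smc4, limma's unadjusted p was under 0.05, against 5127 of all 14324 named genes.

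**Figure D2:**
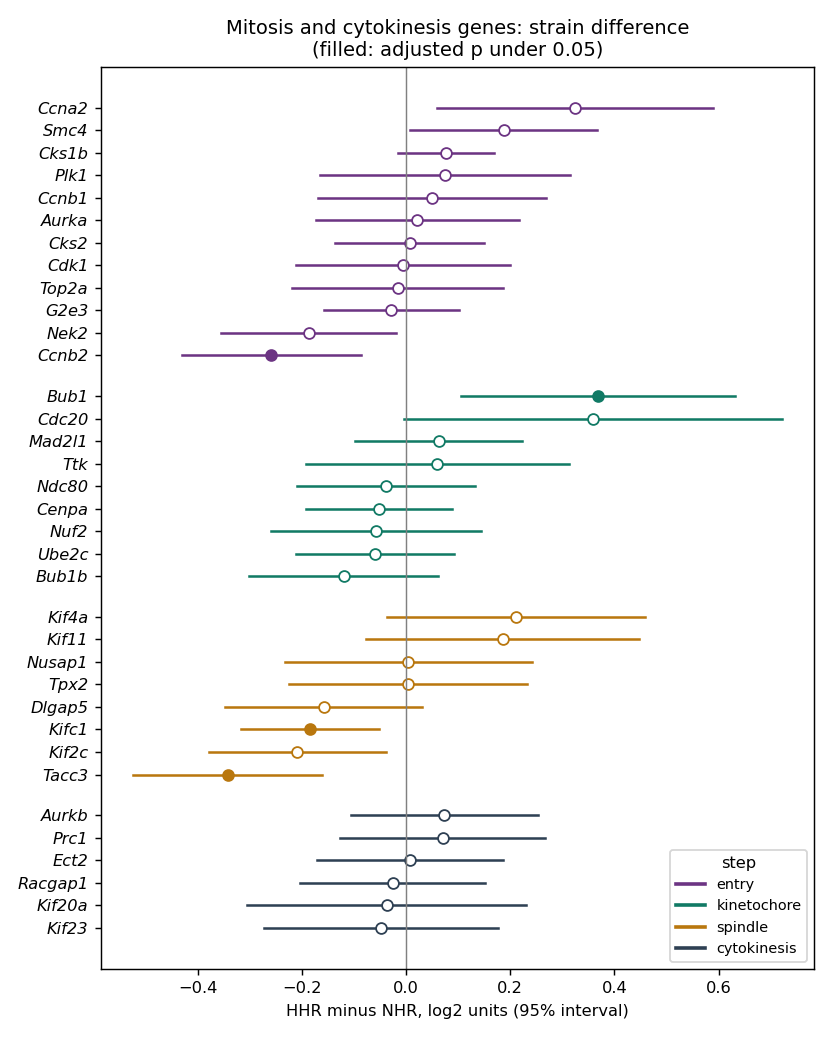
Difference in log2 level, HHR minus NHR averaged over the sexes (horizontal axis), for the 35 genes by step. Points are estimates from limma's fit on 16 arrays and bars their 95% intervals, and filled points passed an adjusted p of 0.05. Tacc3 lies furthest to the left at -0.34 and Bub1 furthest to the right at 0.37, and the intervals of 27 of 35 genes include 0.

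Among the 12 genes of mitotic entry, 1 was lower in HHR and none was higher (8.33% called, against 23.1% of all named genes). The median difference was 0.01 (-0.03 without the 3 arrays that stood apart). The lower gene was Ccnb2, which encodes cyclin B2, a partner of Cdk1. Ccnb2 levels were 9.92, 9.76, 9.73 and 9.77 in HHR females, 9.78, 9.89, 9.95 and 9.72 in HHR males, 9.89, 10.27, 10.21 and 10.21 in NHR females, and 10.11, 10.35, 9.87 and 9.67 in NHR males. The HHR values were close together and all lay below the NHR median, while NHR spread widely and its lowest array, NHR male 4, was below every HHR array. The means were 9.81 ± 0.09 in HHR and 10.07 ± 0.23 in NHR (SD, n = 8 each), a difference of -0.26 (SE 0.08, limma adjusted p = 0.0326) or 0.836-fold. A dimmer probe set of Ccnb2 gave -0.28 (limma adjusted p = 0.0183). The call was lost, at adjusted p between 0.0547 and 0.0639 and differences of -0.25 to -0.24, when any 1 of HHR female 2, 3 or 4, HHR male 1 or 4, NHR female 2, 3 or 4, or NHR male 1 was left out. It was also lost after median centring (-0.24, limma adjusted p = 0.0634).

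Cdk1 itself had mean levels within 0.01 of each other, with 9.60 ± 0.21 in HHR and 9.60 ± 0.23 in NHR (SD, n = 8 each). The 95% interval of its ratio ran from 0.864 to 1.15, so a change of the size seen in Tacc3 (0.789-fold) lies outside it. Cyclin B1, encoded by Ccnb1, differed by 0.05 (interval -0.17 to 0.27; -0.03 without the 3 arrays), and its difference from its relative Ccnb2 was not tested. Ccna2, which encodes the S phase and G2 cyclin A2, had the largest difference among the entry genes that did not pass. Its lowest, median and highest levels were 10.35, 10.70 and 10.96 in HHR and 9.75, 10.41 and 10.72 in NHR. Most HHR arrays, 7 of 8, lay above the NHR median, yet the ranges overlapped, and the difference was 0.32 (SE 0.13, limma adjusted p = 0.0787). It passed without HHR male 4 or without NHR male 2 (0.38 in each, limma adjusted p = 0.0408 and 0.0351). It was 0.12 without the 3 arrays that stood apart (limma adjusted p = 0.470).

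Smc4, a condensin subunit that compacts chromosomes, differed by 0.19 (interval 0.01 to 0.37, limma adjusted p = 0.132), and passed without HHR male 4 (0.25, limma adjusted p = 0.0294), while without the 3 arrays that stood apart it was 0.11 (limma adjusted p = 0.453). Nek2, a kinase that separates centrosomes, differed by -0.19 (limma adjusted p = 0.109), and passed without NHR female 1 (-0.24, limma adjusted p = 0.0180). Without the 3 arrays Nek2 was at -0.15 (limma adjusted p = 0.331). The remaining entry genes stayed between -0.03 and 0.08. They were Top2a, the DNA topoisomerase that untangles chromosomes, the mitotic kinases Aurka and Plk1, the Cdk subunits Cks1b and Cks2, and the ubiquitin ligase G2e3. Plk1 differed by 0.07 (interval -0.16 to 0.31) and Top2a by -0.02 (-0.22 to 0.19), and these were -0.06 and -0.07 without the 3 arrays, where the remaining entry genes ran from -0.07 (Top2a) to 0.12 (Cks2).

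Among the 9 genes of the kinetochore and its checkpoint, Bub1 was higher in HHR and none was lower. That is 11.1% called, against 23.1% of all named genes, with a median difference of -0.04. Bub1 encodes a checkpoint kinase that sits on unattached kinetochores. Bub1 levels were 10.68, 10.42, 10.43 and 10.22 in HHR females, 10.42, 10.60, 10.76 and 10.05 in HHR males, 10.07, 10.37, 9.80 and 9.83 in NHR females, and 10.38, 10.48, 10.06 and 9.66 in NHR males. The lowest HHR array was HHR male 4, and the 3 lowest NHR arrays were the 3 that stood apart. The means were 10.45 ± 0.24 in HHR and 10.08 ± 0.31 in NHR (SD, n = 8 each), a difference of 0.37 (SE 0.12, limma adjusted p = 0.0453) or 1.29-fold. Without the 3 arrays the difference was 0.19 and did not pass (limma adjusted p = 0.328). It did not pass either when any 1 of HHR female 1, 2 or 3, HHR male 1, 2 or 3, NHR female 1, 3 or 4, or NHR male 3 or 4 was left out, with differences of 0.29 to 0.38 and adjusted p between 0.0539 and 0.0932. The call was also lost after quantile normalization (0.34, limma adjusted p = 0.0526) and with trended and robust moderation (0.37, limma adjusted p = 0.0562).

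Cdc20, the activator of the anaphase-promoting complex that the checkpoint holds in check, showed a similar layout without passing the test. Its lowest, median and highest levels were 10.36, 10.61 and 10.80 in HHR and 9.51, 10.31 and 10.77 in NHR. All 8 HHR arrays lay above the NHR median, and NHR spanned more than a log2 unit. The difference was 0.36 (SE 0.17, limma adjusted p = 0.154). Without the 3 arrays that stood apart it was 0.03 (limma adjusted p = 0.907), the lowest of the alternatives, and the highest was 0.44. The other 7 genes differed by -0.12 to 0.06 and none passed. They were the checkpoint genes Bub1b, Ttk and Mad2l1, the centromeric histone gene Cenpa, Ndc80 and Nuf2 of the microtubule-binding complex, and Ube2c, the ubiquitin-conjugating enzyme of the anaphase-promoting complex. Bub1b, a relative of Bub1, differed by -0.12 (interval -0.30 to 0.06), and Mad2l1 by 0.06 (-0.10 to 0.22). These 7 ran, without the 3 arrays, from -0.17 (Ube2c) to 0.08 (Mad2l1), still with none past the test.

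Among the 8 spindle genes 2 were lower in HHR and none was higher (25.0% called, against 23.1% of all named genes). The median difference was -0.08 (-0.14 without the 3 arrays that stood apart). Tacc3 encodes a protein that clathrin and ch-TOG join on the spindle, where they crosslink microtubules. Tacc3 levels were 8.26, 8.08, 8.01 and 7.90 in HHR females, 8.03, 8.26, 8.37 and 7.90 in HHR males, 8.18, 8.64, 8.80 and 8.44 in NHR females, and 8.41, 8.38, 8.45 and 8.26 in NHR males. All 8 HHR arrays lay below the NHR median and 5 lay below every NHR array, while 3 overlapped the low end of NHR. The means were 8.10 ± 0.18 in HHR and 8.44 ± 0.20 in NHR (SD, n = 8 each), a difference of -0.34 (SE 0.09, interval -0.52 to -0.16, limma adjusted p = 0.00929) or 0.789-fold. Tacc3 passed in all 28 alternatives, with differences of -0.40 to -0.29 and adjusted p between 0.00163 and 0.0369, the highest without the 3 arrays that stood apart.

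Kifc1 encodes a minus-end-directed kinesin that bundles spindle poles. Kifc1 levels were 8.38, 8.19, 8.22 and 8.13 in HHR females, 8.37, 8.37, 8.33 and 7.98 in HHR males, 8.37, 8.51, 8.60 and 8.51 in NHR females, and 8.45, 8.20, 8.38 and 8.41 in NHR males. Every HHR array lay below the NHR median and 3 lay below all NHR arrays. The means were 8.25 ± 0.14 in HHR and 8.43 ± 0.12 in NHR (SD, n = 8 each), a difference of -0.18 (SE 0.06, limma adjusted p = 0.0457) or 0.880-fold. Without the 3 arrays that stood apart it was -0.15 (limma adjusted p = 0.212). It also did not pass when any 1 of HHR female 2, 3 or 4, HHR male 3 or 4, NHR female 2, 3 or 4, or NHR male 1, 3 or 4 was left out, with differences of -0.20 to -0.14 and adjusted p between 0.0504 and 0.0887, nor after any of the 3 further normalizations (limma adjusted p = 0.0673 quantile, 0.0738 median centring and 0.0707 cyclic loess).

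The other spindle genes lay on both sides of 0. Kif4a, a chromosome-bound kinesin that also limits the length of the central spindle, had the largest difference that did not pass. Its lowest, median and highest levels were 9.16, 9.59 and 9.82 in HHR and 8.83, 9.33 and 9.69 in NHR. The ranges overlapped, but HHR lay higher at both ends, with 4 HHR arrays above the highest NHR array. The difference was 0.21 (SE 0.12, limma adjusted p = 0.226). It was 0.04 without the 3 arrays that stood apart (limma adjusted p = 0.852). Kif2c, a kinesin that shortens microtubules at kinetochores, differed by -0.21 (limma adjusted p = 0.0766), and its 8 HHR values were below the NHR median. It passed without NHR female 1 or without NHR male 4 (-0.26 to -0.25, limma adjusted p between 0.0231 and 0.0387). Without the 3 arrays that stood apart it was -0.18 (limma adjusted p = 0.172). Dlgap5, which stabilises spindle fibres near chromosomes, differed by -0.16 (limma adjusted p = 0.234) and passed without NHR male 4 (-0.23, limma adjusted p = 0.0442), while without the 3 arrays it was -0.25 (limma adjusted p = 0.0624). Kif11, the kinesin that pushes the poles apart, differed by 0.19 (interval -0.08 to 0.45), and by 0.004 without the 3 arrays. Tpx2 and Nusap1, which nucleate and bundle spindle microtubules, each differed by less than 0.01, with intervals of -0.23 to 0.23 and -0.23 to 0.24, and by -0.13 and -0.05 without the 3 arrays.

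**Figure D3:**
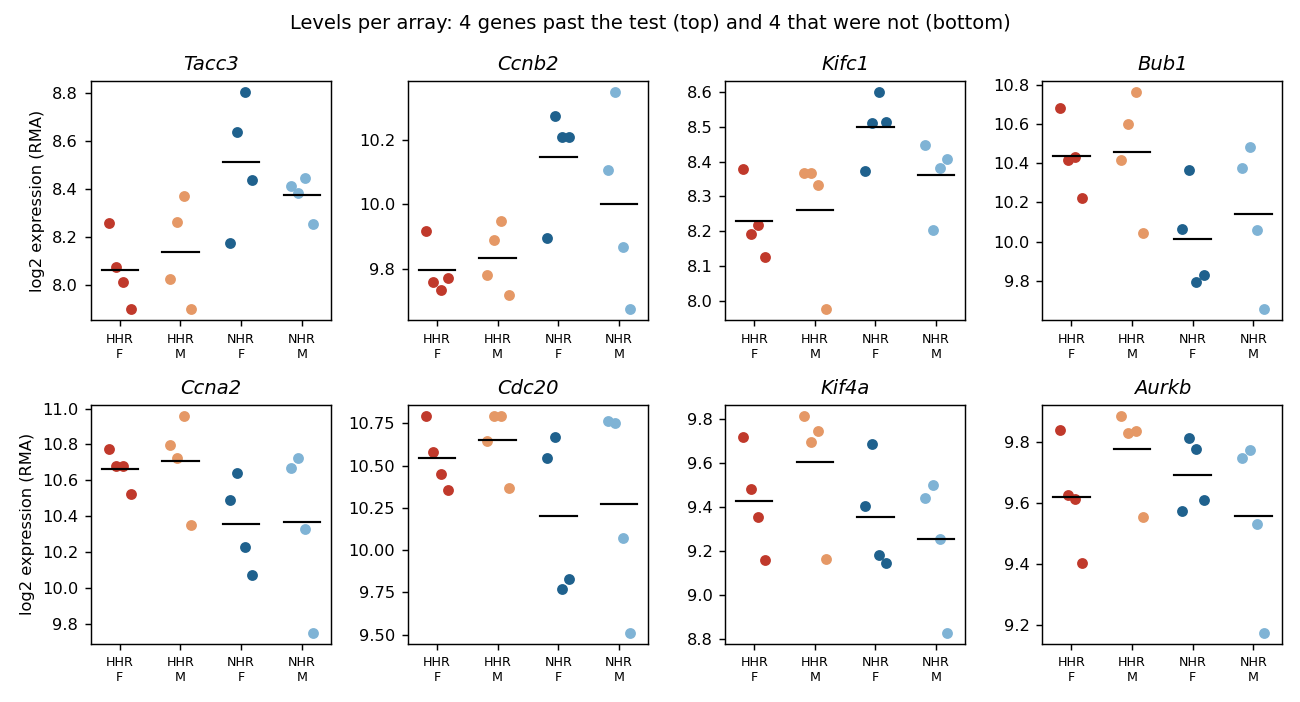
Log2 expression on each array (vertical axis) for the 4 genes that passed the test (top) and, for each step, the gene with the largest difference among those that did not (bottom). Points are animals, bars are means of 4 animals, and F and M stand for females and males. Tacc3, Ccnb2 and Kifc1 sit lower in HHR, Bub1 sits higher, and the ranges of HHR and NHR overlap in every panel.

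None of the 6 cytokinesis genes passed the test, against 23.1% of all named genes, and 0 had an unadjusted p under 0.05 in limma's fit. Their median difference was -0.01, and the 6 differences ran from -0.05 to 0.07. Without the 3 arrays that stood apart the median was -0.06 and the differences ran from -0.16 (Kif20a) to 0.01 (Aurkb). Aurkb, the kinase of the chromosomal passenger complex, had the largest. Its lowest, median and highest levels were 9.40, 9.73 and 9.89 in HHR and 9.17, 9.68 and 9.81 in NHR. The ranges overlapped, with 4 HHR arrays above the highest NHR array (difference 0.07, SE 0.09, limma adjusted p = 0.591). Prc1, which bundles the central spindle, differed by 0.07 (interval -0.13 to 0.27), and by -0.06 without the 3 arrays. Kif23 and Racgap1, the subunits of centralspindlin, differed by -0.05 (-0.27 to 0.18) and -0.03 (-0.20 to 0.15). Without the 3 arrays Kif23 and Racgap1 differed by -0.15 and -0.06. Ect2, the exchange factor that activates RhoA at the cleavage furrow, differed by 0.01 (-0.17 to 0.19), and Kif20a, a kinesin of the central spindle, by -0.04 (-0.30 to 0.23).

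Arrays of the same group differed more than the strains did. The median SD within a group was 0.20 over the 35 genes, against a median size of 0.06 for the strain difference. Over all named genes this SD was 0.12, and 34 of the 35 genes lay above that value. For the 35 genes it was 0.20 in HHR and 0.20 in NHR, and for all named genes 0.09 in HHR and 0.12 in NHR. The genes moved together from array to array. In HHR females 33, 16, 12 and 2 of the 35 genes lay above their own group mean on animals 1 to 4, and in HHR males 29, 35, 34 and 1. In NHR females the counts were 5, 34, 20 and 12, and in NHR males 33, 32, 18 and 2. Over all named genes the share above the group mean was between 42.4% and 55.1% on each array. These counts describe the arrays, since the genes of an array share its RNA. With 1 array for each animal, an animal and the handling of its array cannot be told apart. Array 4 had the lowest count in HHR females, HHR males and NHR males, and array 1 in NHR females. The labels give same-numbered arrays no shared factor, and what they have in common was not tested.

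HHR male 4 and NHR male 4 were low throughout. The mean of the 35 genes, each set against its own mean over the 16 arrays, was 0.15, -0.04, -0.05 and -0.20 in HHR females, 0.12, 0.13, 0.20 and -0.28 in HHR males, -0.08, 0.19, 0.04 and -0.02 in NHR females, and 0.10, 0.14, -0.05 and -0.36 in NHR males. The lowest array of the 16 was NHR male 4 for 23 genes (9.49% of all named genes) and HHR male 4 for 10 (5.28%). The strains had nearly equal means, 0.005 ± 0.18 in HHR and -0.005 ± 0.17 in NHR (SD, n = 8 each). In each of the 4 steps, HHR male 4 was the lowest HHR array and NHR male 4 the lowest NHR array. In HHR male 4 the step means were -0.24 for entry, -0.27 for the kinetochore, -0.34 for the spindle and -0.27 for cytokinesis, and in NHR male 4 they were -0.32, -0.37, -0.34 and -0.46. In bulk tissue, fewer dividing cells and less of their RNA per cell cannot be told apart. Neither can be told apart from the handling of these arrays.

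The leukocyte markers had their highest mean deviations on these arrays, 0.24 in HHR male 4 and 0.18 in NHR male 4, against -0.17 to 0.05 on the other 14 arrays. They were at -0.06 in HHR female 4, the array next lowest for the 35 genes. The erythroid markers were at 0.04 in HHR male 4, within the range of the other arrays, and at 0.20, their highest, in NHR male 4. The fibroblast markers were at 0.17 in HHR male 4 and at -0.24, their lowest, in NHR male 4. S phase genes were at -0.02 in HHR male 4, the other HHR males being at 0.14 to 0.21, and at -0.21 in NHR male 4, the other NHR males being at -0.11 to 0.001. The part of these markers in the low levels was not tested.

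**Figure D4:**
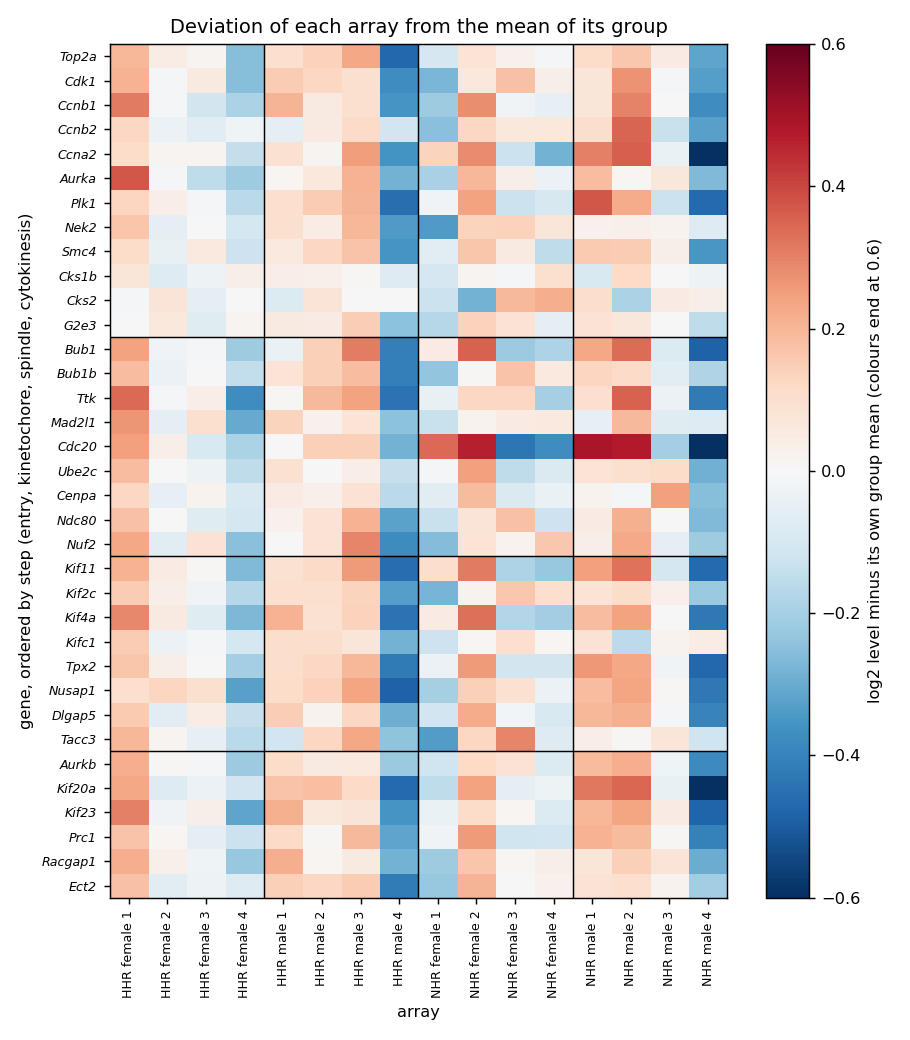
Log2 level of each gene minus the mean of its own group of 4 (colour), for 35 genes in rows by step and 16 arrays in columns, with lines between steps and groups. Columns tend to hold 1 colour from top to bottom: HHR male 4 has 1 gene above its group mean and NHR male 4 has 2, while HHR male 2 has 35.

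Within females, 2 of the 35 genes were lower in HHR and 0 were higher by limma's test, against 6.54% and 7.06% of all named genes (13.6% in either direction). Limma's unadjusted p was under 0.05 for 6, against 4116 of all 14324 named genes. Tacc3 differed by -0.45 (SE 0.12, limma adjusted p = 0.0227) and Kif2c by -0.38 (SE 0.11, limma adjusted p = 0.0394). The median difference was -0.08, and 24 of the 35 differences were negative. These calls rested on few arrays: 0 genes passed without HHR female 3, HHR female 4, NHR female 2 or NHR female 3, or without the 3 arrays that stood apart, 1 passed (Tacc3) without HHR female 2 or NHR female 4, and 5 passed without NHR female 1. NHR male 2 or NHR male 4, which enter through the shared variance, gave 4 when left out.

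Within males, 0 of the 35 genes passed limma's test in either direction, against 4.46% of all named genes. Limma's unadjusted p was under 0.05 for 2, against 3067 of all 14324 named genes. The lowest adjusted p was 0.142. The median difference was 0.11, and 25 of the 35 differences were positive. The difference between the sexes in the strain effect was tested directly. For this interaction 0 of the 35 genes passed, as did 0.0% of all named genes. Limma's unadjusted p was under 0.05 for 0, against 648 of all 14324 named genes. The male effect minus the female effect was nonetheless positive for 31 of the 35 genes, including all 8 spindle and all 6 cytokinesis genes, against 52.3% of all named genes. It was positive for 59 of 72 other mitosis genes (81.9%) and 33 of 44 S phase genes (75.0%) as well. The mean deviation of the 35 genes was -0.03 ± 0.15 in HHR females, 0.04 ± 0.22 in HHR males, 0.03 ± 0.12 in NHR females and -0.04 ± 0.23 in NHR males (SD, n = 4 each), so the 4 means lay closer together than the animals within a group.

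Males and females did not differ detectably in these genes. Averaged over the strains, 0 of the 35 genes passed limma's test, against 0.014% of all named genes. Limma's unadjusted p was under 0.05 for 0, against 838 of all 14324 named genes. The differences, male minus female, ran from -0.07 (Cdk1) to 0.09 (Cdc20).

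Further genes of mitosis were counted on a list of 111 symbols, of which 72 were measured. Of these 8 were higher and 5 were lower in HHR (18.1% called, against 23.1% of all named genes, with 11.8% higher and 11.2% lower), with a median difference of 0.02. The list was thus called no more often than named genes in general. The 3 largest rises were in Wee1, the kinase that holds Cdk1 inactive, at 9.74 ± 0.12 in HHR and 9.26 ± 0.35 in NHR (SD, n = 8 each; difference 0.48, limma adjusted p = 0.0059), in Pbk, a mitotic kinase (0.40, limma adjusted p = 0.0395), and in Cdc26, a subunit of the anaphase-promoting complex (0.37, limma adjusted p = 0.00171). The 3 largest falls were in Spag5, a spindle and kinetochore protein (-0.26, limma adjusted p = 0.0443), in Anapc2, also a subunit of the anaphase-promoting complex (-0.23, limma adjusted p = 0.00585), and in Haus8, a subunit of the augmin complex that branches spindle microtubules (-0.22, limma adjusted p = 0.0095). Subunits of the same complexes thus passed in both directions. Per array, this list had a mean deviation of 0.02 ± 0.13 in HHR and -0.02 ± 0.12 in NHR (SD, n = 8 each).

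The genes of DNA replication, which precedes mitosis, gave other values. Of 44 S phase genes measured of 50 listed, 18 were higher in HHR and 1 was lower (43.2% called, against 23.1% of all named genes), with a median difference of 0.17. The largest rises were in Prim1, a subunit of the primase that starts new DNA strands, at 10.69 ± 0.11 in HHR and 10.03 ± 0.34 in NHR (SD, n = 8 each; difference 0.66, limma adjusted p = 0.000561), and in Ccne1, which encodes cyclin E1, the driver of entry into S phase (0.60, limma adjusted p = 8.89e-05). Neither gene's strains overlapped, HHR being above NHR on every array. The 1 fall was in Rfc2, a subunit of the complex that loads the replication clamp (-0.17, limma adjusted p = 0.0257). The per-array mean of the S phase genes was 0.09 ± 0.10 in HHR and -0.09 ± 0.07 in NHR (SD, n = 8 each). The median SD within a group was 0.13 for the S phase genes and 0.20 for the mitosis and cytokinesis genes, so their shares called are not alike in precision. The difference between this list and the mitosis and cytokinesis genes was not tested, and this pattern of the S phase genes was known when the lists were chosen.

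**Figure D5:**
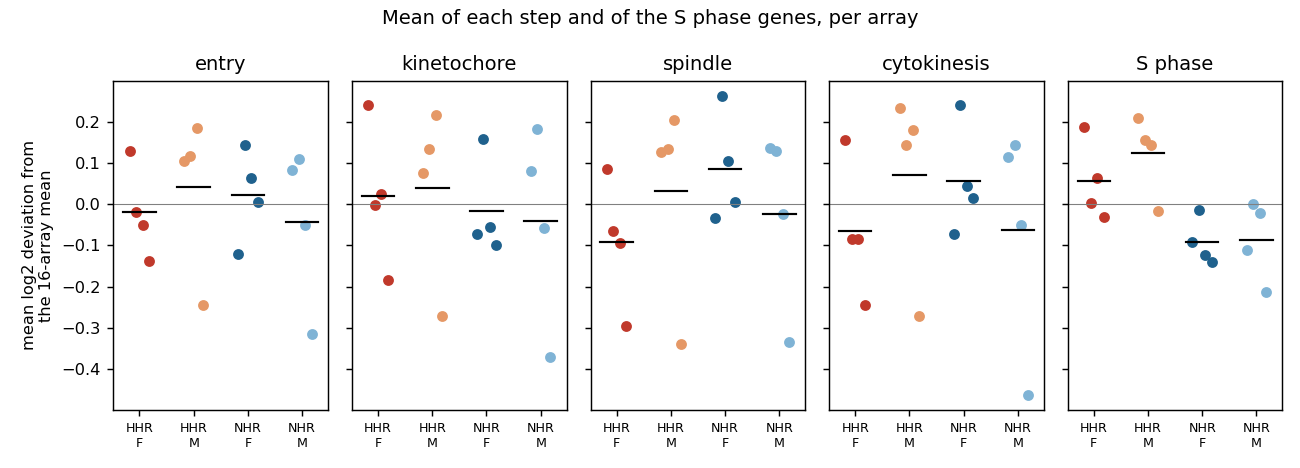
Mean log2 deviation from the 16-array mean (vertical axis) on each array, for the 4 steps of mitosis and for the S phase genes. Points are animals, bars are means of 4 animals, and F and M stand for females and males. In the 4 steps HHR and NHR overlap widely, and HHR male 4 and NHR male 4 lie at the bottom of their groups. For the S phase genes the means were 0.09 in HHR and -0.09 in NHR. Their ranges, -0.03 to 0.21 in HHR and -0.21 to 0.001 in NHR, also overlapped. HHR male 4 and NHR male 4 were the lowest of their groups there too.

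The markers of the cell types of the heart were counted in the same way, where 23.1% of all named genes were called, 11.8% as higher and 11.2% as lower. Of the measured cardiomyocyte markers 0 of 10 were higher in HHR and 5 were lower, and of the endothelial markers 1 of 7 was higher and 4 were lower. Of the fibroblast markers 4 of 10 were higher and 0 were lower. Of the leukocyte markers 1 of 10 was higher and 1 was lower, a share no higher than that among all named genes, and of the erythroid markers 1 of 9 was higher and 2 were lower. Atrial markers were higher for 5 of 9 and lower for 1, and epicardial markers were higher for 3 of 8 and lower for 0. The mean level of the cardiomyocyte markers ranged from 13.22 to 13.31 in HHR and from 13.30 to 13.43 in NHR, and that of the fibroblast markers from 10.51 to 10.82 in HHR and from 10.38 to 10.62 in NHR. Endothelial markers ranged from 10.32 to 10.44 in HHR and from 10.41 to 10.56 in NHR. Leukocyte markers ranged from 7.35 to 7.75 in HHR and from 7.38 to 7.69 in NHR, and erythroid markers from 7.43 to 7.66 in HHR and from 7.45 to 7.81 in NHR. Atrial markers, with 9.52 to 10.24 in HHR and 9.14 to 9.76 in NHR, and epicardial markers, with 7.60 to 7.79 in HHR and 7.22 to 7.65 in NHR, reached higher on HHR arrays. The deposited values give no background level, so none of these markers can be called absent. Their part in the strain differences of Tacc3, Ccnb2, Kifc1 and Bub1 was not tested, and a sequence difference between the strains under a probe cannot be told apart from a difference in RNA.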

How the data were processed

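The authors deposited log2 values from RMA (background correction, normalization between arrays and a summary of each probe set's probes), and limma is the other tool listed, per the submitters' processing notes. Their versions, annotation and filters are not given in the sources used here. Samples were grouped by their titles. The platform's annotation gave exactly 1 symbol for 15097 of 27342 probe sets, and the brightest row stood for each gene.

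A mean for each of the 4 groups was fitted to all 16 arrays and 27342 probe sets with limma 3.58.1 in R 4.3.3, followed by empirical Bayes moderation, Benjamini-Hochberg adjustment over all probe sets and a threshold of 0.05. The 5 comparisons were HHR against NHR over both sexes, in females and in males, the difference between those effects, and males against females. No filter on low values was applied. The fit was tested on simulated data. Nothing says that the animals came from separate litters, so p-values measure the spread between these animals. The number of arrays limits the precision.

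The members and lists were chosen with earlier results of these data known. All 35 measured genes could be named. Per-array values are given for those past the threshold, and lowest, median and highest levels for the largest difference in each step among the rest. From the other mitosis list the 3 largest rises and falls past the threshold are named, and from the S phase list up to 2 per direction. The mitosis list holds some synonyms of measured genes. Alternatives were 3 further normalizations, a filter above the 40th percentile on at least 4 arrays, single-symbol rows only, other moderation, array weights, a replicate block, strain alone, arrays left out, a threshold of 0.01 and the least bright row.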

Additional observations from a re-analysis of the deposited data

Results flagged for a closer look

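In 16 of the 140 sets of 4 arrays examined (35 genes in 4 groups), the highest or lowest array lay far from the others, with a gap that as a share of the whole range was above Dixon's 95% critical value for 4 samples. Chance gives about 1 in 20, and the genes share arrays, so the 16 are not independent.

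HHR male 4 was far below the other HHR males for 8 genes. Its log2 levels were 9.25 for Cdk1, 9.69 for Plk1, 8.40 for Kif2c, 7.98 for Kifc1, 10.20 for Tpx2, 9.56 for Aurkb, 9.22 for Kif20a and 10.02 for Ect2, and the nearest HHR males were at 9.72 for Cdk1 and 10.56 for Ect2. NHR male 4 was flagged below the other NHR males for 3 genes, at 9.72 for Nek2, 9.05 for Ube2c and 8.94 for Racgap1. The nearest NHR males were at 9.82, 9.42 and 9.31. For Nek2 the gap was small in level, and the other NHR males lay close together, between 9.82 and 9.83. HHR female 4 was low for Nusap1 at 9.48, with the nearest HHR female at 9.90. NHR female 1 was low for Ccnb2 at 9.89 and for Nek2 at 9.54, with the nearest NHR females at 10.21 and 9.95. On the high side, NHR male 2 was at 9.03 for Mad2l1 and NHR female 2 at 8.72 for Cenpa.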

How the results depend on the processing

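Of the 35 genes, 24 passed the test for the strain difference in none of up to 28 alternatives and 11 in at least 1. Tacc3 passed in 28, Ccnb2 in 17, Bub1 in 13 and Kifc1 in 12 of 28, and no called difference changed sign. Of the 31 genes not called, 17 changed sign in at least 1 alternative without passing the test. The count higher in HHR, 1 with all arrays, was 0 after quantile normalization, with trended and robust moderation, without the 3 NHR arrays apart and at the 0.01 threshold, and 0 to 3 with 1 array left out (3 without HHR male 4, 2 without NHR male 2). The count lower, 3, was 1 after median centring and at 0.01, and 1 to 5 with 1 array left out. In females the count lower, 2, was 4 with the filter on dim probe sets or single-gene probe sets, 1 after median centring, 5 with array weights, 0 without the NHR arrays apart and at 0.01, and 0 to 5 with 1 array left out. By step, calls for entry (1) were 0 after median centring and at 0.01 and 0 to 2 with 1 array left out. Calls for the kinetochore (1) were 0 after quantile normalization, with trended and robust moderation, without the NHR arrays apart and at 0.01, and 0 to 1 with 1 array left out. Calls for the spindle (2) were 1 after cyclic loess, quantile normalization or median centring, without the NHR arrays apart and at 0.01, and 1 to 3 with 1 array left out. The cause of these changes was not tested. With a replicate block 5 genes were higher (Bub1, Ccna2, Cdc20, Kif4a and Smc4), as were 1 in females and 1 in males, 4 were lower in females, and calls were 3 for entry and 2 for the kinetochore. The labels give same-numbered samples no shared factor beyond the number. The correlations of their deviations ran from -0.11 to 0.37, and 11 of 24 were over 0.1. A sample correlated best with its own number in 25 of 48 cases, where chance gives about 1 in 4. What same-numbered samples have in common was not tested. The count of 0 for the interaction, for males against females, and for the 6 cytokinesis genes was the same in every alternative.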
